A study of Mus musculus with 2 samples.

Results

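The GATA3 binding landscape around Irf2bp2 was examined in a window of mouse chromosome 8 from 129050000 to 129250000 (mm9). The window was proposed with earlier results of these data known, because its sites lie close together, so the density of its sites is a description and carries no test. In it 24 separate GATA3 sites were found, of 84776 sites over chromosomes 1 to 19, X and Y, and all 24 are accounted for below. The study profiled GATA3 by chromatin immunoprecipitation and sequencing (ChIP-seq) in naive CD4+CD25–CD62L+ T cells of C57BL/6 mice. There are 2 libraries, of 22963959 and 15561681 reads. The protocol shared by both libraries lists plate-bound anti-CD3 at 1 µg/ml and soluble anti-CD28 at 1 µg/ml. The smaller library, called here the TGF-β/IL-4 library, is labelled TGF-β +IL-4, and the protocol lists TGF-β1 at 2 ng/ml and IL-4 at 10 ng/ml. The larger gives NA as its treatment and is called the unlabelled library. As the shared protocol describes TGF-β1 cultures that did or did not receive IL-4, the unlabelled library may stand for TGF-β1 alone or for another state. With 1 library per condition and no input library used here, no difference between conditions has a replicate check, no p-value is given, and open chromatin cannot be told apart from GATA3 binding. All intervals are at 95% and cover counting error only.

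Irf2bp2 encodes interferon regulatory factor 2 binding protein 2, a nuclear zinc-finger and RING-finger protein first described as a co-repressor of IRF2. It also binds the T cell factor NFAT1 and represses NFAT1-driven cytokine transcription. GATA3 is the zinc-finger factor that directs T helper 2 differentiation; it binds DNA at the letters GATA, often at several elements spread around one gene.

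The rule that set the window places Irf2bp2 near 129.11 Mb. No mm9 annotation was used here, so sites are given by position and none is assigned to an exon, intron or promoter. In the RefSeq gene table, which is of the GRCm38 assembly and was used for names only, the closest entries to Irf2bp2 are the long non-coding RNA genes Gm39286 and Gm51605 and the pseudogene Gm6091 to one side, and the long non-coding RNA genes Gm31546, Gm31603 and Gm45805 to the other. The nearest protein-coding neighbours are Tarbp1, which encodes a TAR RNA-binding protein, and Tomm20, which encodes a receptor of the mitochondrial import machinery. Between Irf2bp2 and Tomm20 the table holds 5 entries, none of them protein-coding. Which of the 24 sites falls near which of these genes was not determined.

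The promoter of Irf2bp2 is shown because it is the gene's own start region and can be searched for the letters that GATA3 binds. The 250 bases before the start are given from the RefSeq promoter table (GRCm38.p6, chr8:126593987-126594236, minus strand, coordinates not comparable with the mm9 positions used for the sites), 5′ to 3′ on the gene's strand, with CG dinucleotides in capitals.
Irf2bp2 promoter: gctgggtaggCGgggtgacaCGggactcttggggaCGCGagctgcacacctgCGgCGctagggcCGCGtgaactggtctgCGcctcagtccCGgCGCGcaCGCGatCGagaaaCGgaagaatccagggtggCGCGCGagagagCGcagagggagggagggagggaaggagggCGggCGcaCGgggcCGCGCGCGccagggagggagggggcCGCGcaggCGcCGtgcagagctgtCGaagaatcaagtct
These bases hold 71.6% G and C and 32 CG dinucleotides, against medians of 52.4% and 6 over the 32851 promoters of the table. At least as many CG dinucleotides were found in 4.58% of promoters. The core GATA was found on neither strand, and so neither was any 6-letter motif that has A or T before the core and A or G after it. The core was present in 53.6% of all promoters over the same 250 bases, and a 6-letter motif, searched on both strands, in 26.5%. The absence of these letters says nothing of GATA3 elsewhere around the gene.

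Reads were unevenly spread over the window. It was divided into 1000 bins of 200 bp, and each read was placed at the centre of its fragment, 63 bp inwards from its 5′ end. The median bin held 4 reads in the unlabelled library and 2 in the TGF-β/IL-4 library, and the fullest bin held 158 and 109. A site was a run of bins enriched over the surrounding 10 kb in either library at equal depth. The 24 sites took 42 of the bins, or 4.2% of the window, and held 16.9% of its reads in the unlabelled library (835 of 4944) and 23.1% in the TGF-β/IL-4 library (785 of 3404). Neighbouring sites were separated by 400 to 29600 bp, with a median of 6400 bp. Most of the signal lay in few of them: the 6 strongest held 68.6% and 64.7% of the site reads.

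**Figure D1:**
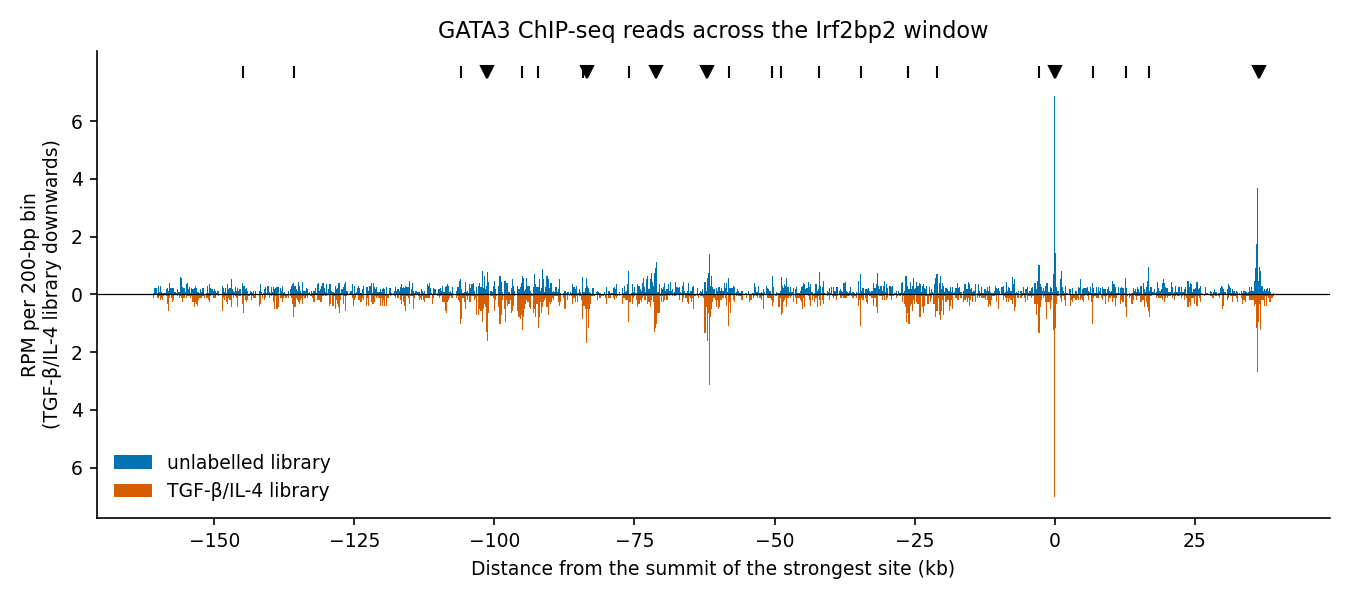
Reads per 1000000 reads of the library (RPM) in each 200-bp bin of the window, upwards for the unlabelled library and downwards for the TGF-β/IL-4 library, against distance in kb from the summit of the strongest site. Triangles mark the 6 strongest sites and ticks the other 18; the tallest bins of both libraries are at the strongest site, and many of the other 18 stand little above the reads between them.

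Sites are numbered 1 to 24 by position, and their level is given in RPM, reads per 1000000 reads of the library. The strongest was site 20, from 129210601 to 129211200, about 100 kb from the position given for Irf2bp2. It held 207 reads in the unlabelled library (9.01 RPM) and 146 in the TGF-β/IL-4 library (9.38 RPM), a ratio of 1.04 with an exact interval of 0.836 to 1.29. With scaling by total reads the libraries differed here by less than counting error, and the interval then leaves out a 1.5-fold difference in either direction. Under a second scaling, given below, the interval was 0.63 to 0.973 and held a 1.5-fold lower level. The files hold no reads sharing position and strand. At site 20, 17.25% and 12.2% of the possible positions were filled, where the 24 sites had medians of 3.5% and 4%. Its mean level exceeded that of 98.1% of all sites of the genome. Site 20 stood 14.4-fold and 16.0-fold over the reads of its surroundings outside sites, the highest values of the window in both libraries. It had a single narrow summit, placed at 129210881 in the unlabelled library and at 129210901 in the other, and 122.5 bp separated the median read starts of the strands.

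Site 24, from 129246801 to 129247800 at the far end of the window, ranked 2 by strength. It had 177 reads (7.71 RPM) in the unlabelled library and 99 (6.36 RPM) in the TGF-β/IL-4 library. The ratio of 0.825 had an interval of 0.639 to 1.06, which holds 1. Its main summit carried 76 and 37 fragments, and a lower maximum lay 570 bp away with 24 fragments in the first library and 640 bp away with 17 in the second. At site 24, 78.5% and 80.8% of the reads carried the highest mapping quality; the whole libraries had 87.8% and 88.3%. With such reads alone the ratio was 0.844.

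Closer to the position of Irf2bp2, sites 4, 8 and 11 had more than 2 times the level in the TGF-β/IL-4 library, and site 10 among them did not. Sites 10 and 11 were called in both libraries. Sites 4 and 8 were called in the TGF-β/IL-4 library alone, so the reads that chose them also gave their ratios. Their intervals do not allow for this. Site 11, ranked 3 by strength, from 129148401 to 129149400, had 75 reads (3.27 RPM) in the unlabelled library and 112 (7.20 RPM) in the TGF-β/IL-4 library, a ratio of 2.20 (1.63 to 2.99). It was a compound site: in the TGF-β/IL-4 library 3 maxima of 20, 21 and 35 fragments lay within it, and in the other library 3 maxima of 9, 14 and 26. Site 8, from 129127201 to 129127800, had 25 reads (1.09 RPM) and 52 (3.34 RPM), a ratio of 3.07 (1.87 to 5.16). A second maximum of site 8, about 500 bp from its summit, had 15 fragments in the TGF-β/IL-4 library and 5 in the other. Site 4, from 129109401 to 129109800, was the nearest to the position given for Irf2bp2, which is known here only to 10 kb. It had 25 reads (1.09 RPM) and 45 (2.89 RPM), a ratio of 2.66 (1.59 to 4.52). Site 10, from 129139401 to 129140000, lies between sites 8 and 11 and did not share their ratio: it had 64 reads (2.79 RPM) and 54 (3.47 RPM), and its ratio of 1.25 had an interval of 0.85 to 1.82.

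**Figure D2:**
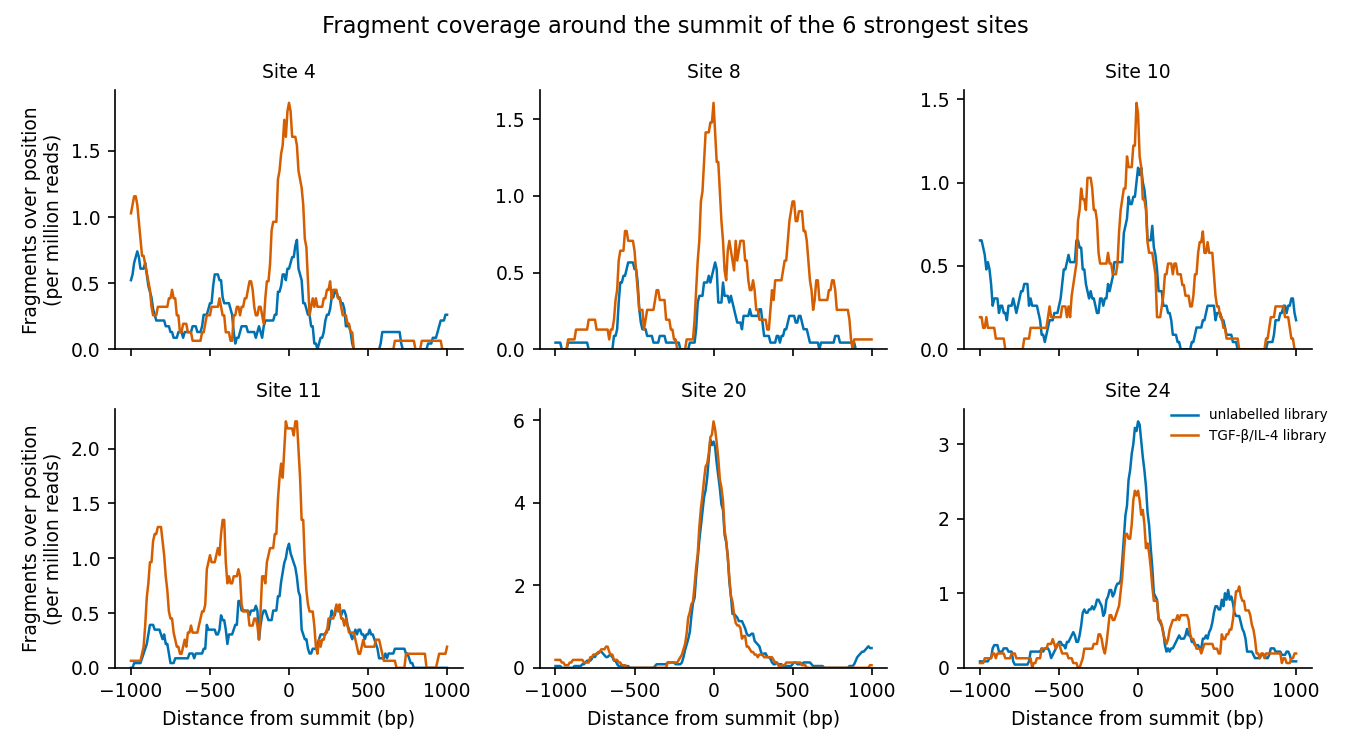
Fragments covering each position, per 1000000 reads, within 1000 bp of the summit of the 6 strongest sites, for both libraries; each panel has its own vertical scale. The curves of the libraries lie on each other at site 20, and the unlabelled library is higher at the summit of site 24 (76 against 37 fragments in libraries of different depth). The TGF-β/IL-4 library is higher at the summits of sites 4, 8 and 11. It is higher by less at the summit of site 10 (1.41 against 1.09 per 1000000 reads).

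A change was called where the ratio reached 2 (higher) or 0.5 (lower) and its interval did not hold 1. By this rule 7 of the 24 sites (29.2%) were higher in the TGF-β/IL-4 library, where 21% of all sites of the genome were (17797 of 84776), and 1 was lower, where 5.51% were. The 7 were sites 4, 6, 8, 11, 17, 21 and 22, of which site 11 was called in both libraries and the others in the TGF-β/IL-4 library alone. A ratio over 1 was found at 20 of 24 sites beside 68.8% of all sites. The window was proposed with both libraries in view, so these shares are set side by side with nothing read from them. Of the 7 sites called in both libraries 1 was higher and 0 were lower, where 12.3% and 1.07% of such sites of the genome were. The median log2 ratio was 0.78 over the 24 sites and 0.56 over all sites. For sites called in both libraries, 7 in the window, the order turned, with 0.32 in the window and 0.41 over the genome. Neither order is read as a difference between the window and the genome. Among the 6 strongest sites 3 were higher and 0 lower, and among the 15185 sites of the genome with a mean level of at least 1.99 RPM, that of the weakest of these 6, the shares were 19.1% and 1.12%. Sites were chosen by enrichment in either library, which by itself favours unequal ratios at weak sites. A further scaling set the sites called in both libraries to a median ratio of 1, which lowers every log2 ratio by 0.41. With it 3 window sites were higher (sites 4, 6 and 8) and 1 was lower, beside 9.0% and 11.6% of all sites. Over the genome the share of higher among changed sites fell to 43.6% from 79.2%. With that scaling the ratios of sites 20 and 24 were 0.784 and 0.621 with intervals of 0.63 to 0.973 and 0.481 to 0.799, which no longer hold 1.

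The other 18 sites had mean levels of 0.474 to 1.88 RPM, and most could not be told apart between the libraries at this depth. The median of the mean levels was 0.862 RPM over the 24 sites and 0.679 RPM over all sites of the genome, and 17 of the 24 were above the latter. They held 5 to 26 reads in the unlabelled library and 3 to 41 in the other. In 13 of them the interval of the ratio held 1, and their ratios ran from 0.59 at site 13 to 2.11 at site 1. The highest ratio of the window was at site 6, from 129118601 to 129118800, with 6 reads (0.261 RPM) against 18 (1.16 RPM), a ratio of 4.43 (1.68 to 13.6). In the unlabelled library site 6 was at the level of its surroundings, with 1.00-fold, and in the TGF-β/IL-4 library it was at 3.30-fold. Site 22, from 129223601 to 129223800, had 5 reads against 12 and a ratio of 3.54 (1.16 to 12.8). Sites 17 and 21, named to complete the higher sites, had ratios of 2.33 (1.39 to 3.96) from 26 reads against 41, and of 2.62 (1.09 to 6.74) from 9 against 16. The lower site was site 15, from 129168801 to 129169000, with 18 reads in the unlabelled library and 3 in the TGF-β/IL-4 library, a ratio of 0.246 (0.0464 to 0.842). At site 15 the median read starts of the strands lay in reverse order, at -62 bp, where the 24 sites had a median of 100.75 bp, and 0% of its 3 TGF-β/IL-4 reads had the top mapping quality; the part of the strand order in the result was not tested. With reads of the top mapping quality alone site 15 had 17 reads against 0, and the interval of its ratio reached up to 0.356. It was still called lower, but site 15 was found through these same reads of the unlabelled library, so this is no separate check. Of the 24 sites, 7 were called in both libraries, 14 in the TGF-β/IL-4 library alone and 3 in the other alone. Over the genome those shares were 36.6%, 40.2% and 23.1%.

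**Figure D3:**
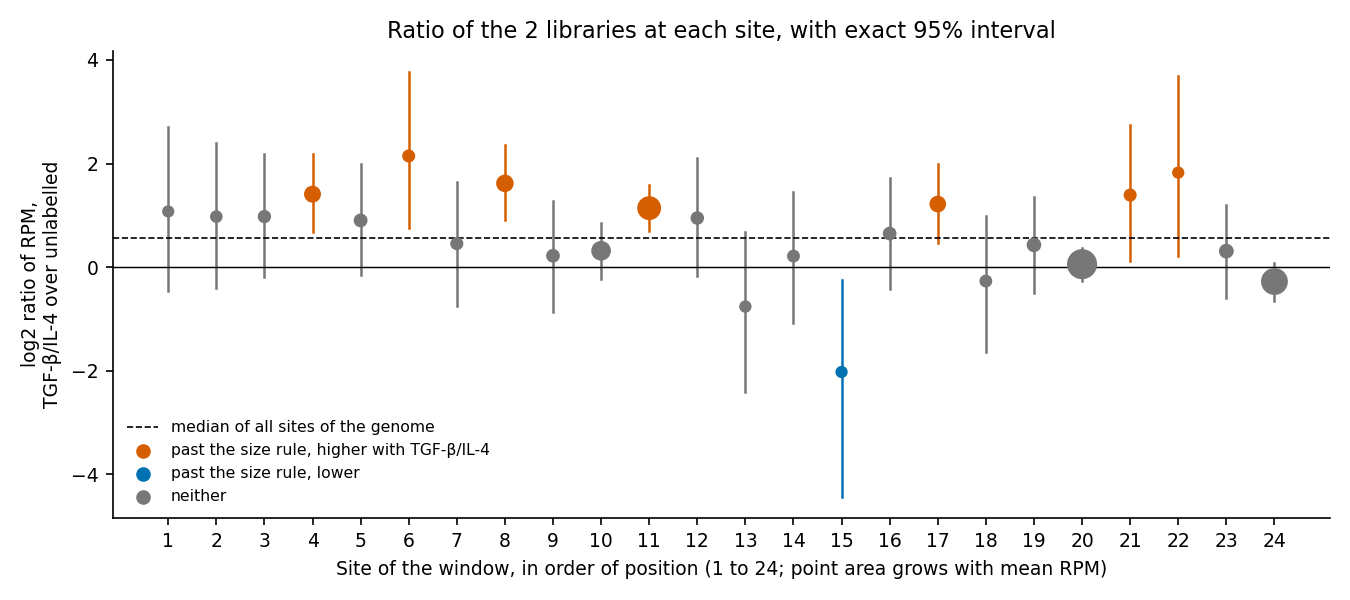
The log2 ratio of RPM (TGF-β/IL-4 over unlabelled) at the 24 sites in order of position, with its exact 95% interval; point area grows with mean RPM and the dashed line is the median of all sites, 0.56. The points for sites 20 and 24 sit near 0 with short intervals, sites 4, 6, 8 and 11 lie above it, and the intervals of most of the 18 weaker sites cross 0.

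In a division made after the data were seen, the reads of the sites were summed over 4 stretches of 50 kb. From 129100001 to 129150000, the stretch that holds the position of Irf2bp2 and 9 sites, the sites had 255 reads (11.1 RPM) in the unlabelled library and 344 (22.1 RPM) in the TGF-β/IL-4 library, a ratio of 1.99 (1.69 to 2.35). From 129200001 to 129250000, with 6 sites including both of the strongest, they had 446 reads (19.4 RPM) and 315 (20.2 RPM), a ratio of 1.04 (0.899 to 1.21). Without the 2 strongest, sites 20 and 24, the other 4 sites of that stretch had 62 reads and 70, a ratio of 1.67 (1.17 to 2.38), an interval that overlaps that of the stretch with Irf2bp2. In the stretch with Irf2bp2 6 of the 9 sites were called in the TGF-β/IL-4 library alone. No difference between stretches is therefore read from these sums. The stretch between them, with 7 sites, had a ratio of 1.30 (0.989 to 1.71), and the first stretch, with 16 and 22 site reads in 2 sites, a ratio of 2.03 (1.02 to 4.13). Reads between the sites had a ratio of 1.11 (1.01 to 1.22) in the stretch with Irf2bp2. In the other stretches, from low to high positions, the ratios were 0.876 (0.789 to 0.971), 0.953 (0.863 to 1.051) and 0.803 (0.721 to 0.893). The interval around 0.953 overlaps that of the stretch with Irf2bp2, and the others lie below it. As the intervals cover counting error only, no difference between stretches is read from these reads either. With the reads of the surrounding 10 kb subtracted the ratios of sites 4, 8 and 11 were 3.82, 3.69 and 2.69. Those of sites 10, 20 and 24 were 1.46, 1.049 and 0.808. These ratios are given without intervals, and sites 4 and 8 were called in the TGF-β/IL-4 library alone.

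The window was set beside 500 kb on each side. It had 12 sites per 100 kb, the flank at lower positions 2.6 (13 sites) and the flank at higher positions 9 (45 sites). The flanks are averaged over a greater length than the window. In the upper flank, the 200 kb from 129300001 to 129500000 held 6, 14, 9 and 4 sites by stretches of 50 kb. Together these are more than the 2, 9, 7 and 6 of the window, so at equal length the window was not the densest part. The order of the window and the upper flank turned with the strength asked of a site. Of sites of at least 1.99 RPM the window had 3 per 100 kb, the lower flank 0.4 and the upper flank 3.4, and at a stricter q of 1e-05 they had 4, 0.6 and 4.8. The last site below the window lay at 129041201 to 129041400, with 24 reads and 14, and the first above it at 129253001 to 129253200, with 12 and 6. The densest 50 kb of these 1200 kb lay outside the window, from 129350001 to 129400000, with 14 sites, 11 of them at or above 1.99 RPM. The 14 sites held 61.7 and 87.6 RPM, more than all sites of the window together (36.4 and 50.4 RPM), at a ratio of 1.42 (1.32 to 1.53). In the lower flank 0 of 13 sites were higher and 0 lower, and in the upper flank 3 of 45 were higher and 2 lower. Over the genome 21% of all sites were higher and 5.51% lower. Sites called in both libraries made up 30.8% of sites in the lower flank, 29.2% in the window and 55.6% in the upper flank. Over the genome 12.3% of such sites were higher, so these counts are not compared between the regions. Summed over sites, the ratio was 1.19 (0.982 to 1.44) in the lower flank, 1.39 (1.26 to 1.53) in the window and 1.36 (1.28 to 1.44) in the upper flank, and these 3 intervals overlap.

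**Figure D4:**
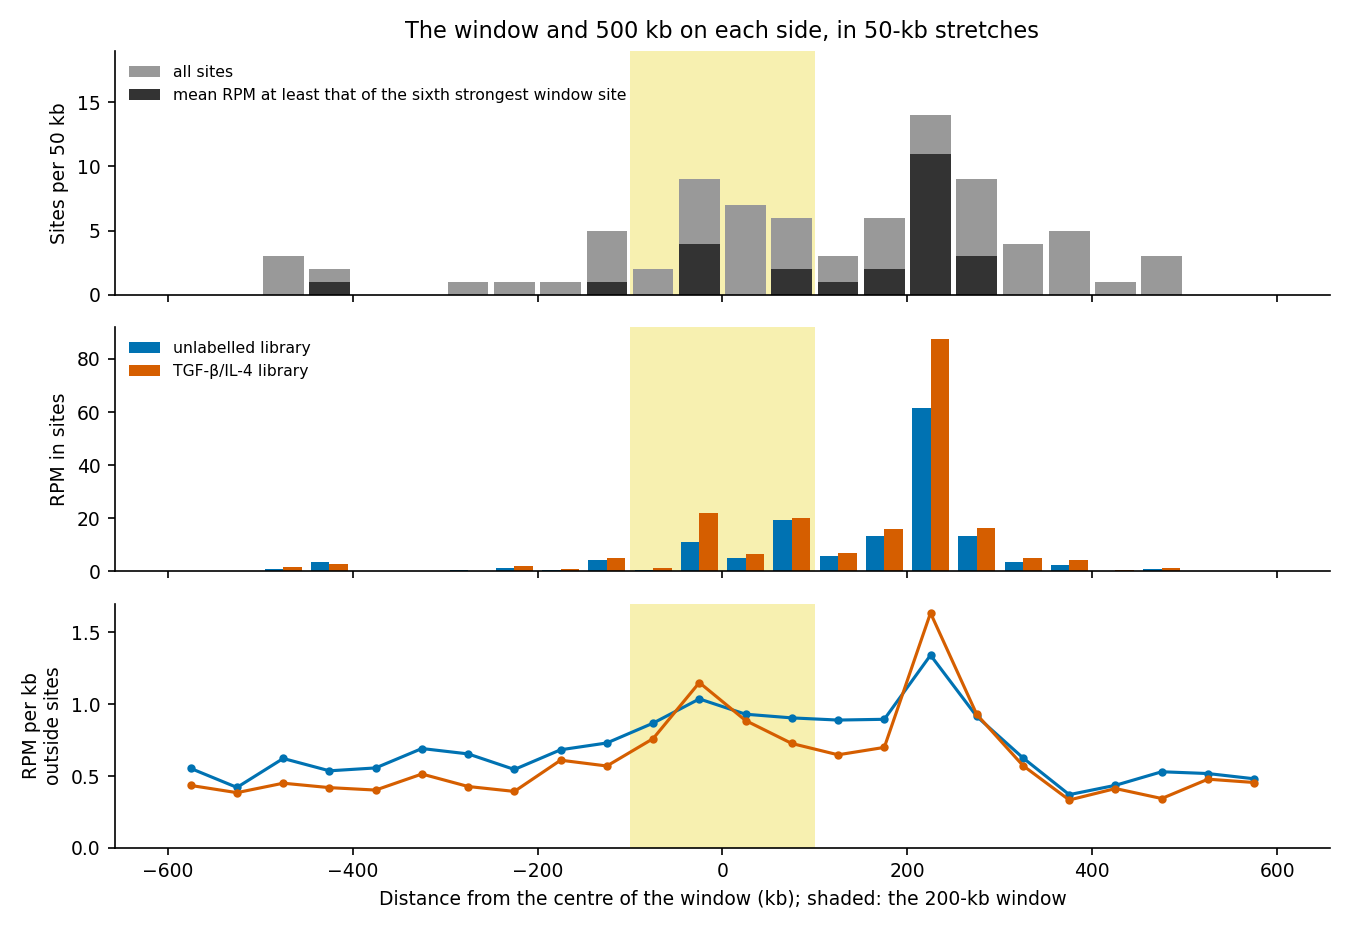
The window (shaded) and 500 kb on each side in stretches of 50 kb, by distance in kb from the centre of the window. From top to bottom: the number of sites with those of at least 1.99 RPM in dark, the RPM in sites, and the RPM per kb outside sites in both libraries. Sites gather in the window and in a stretch of the upper flank with 14 sites, and are few at lower positions.

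Reads between the sites were also more numerous in the window than in either flank taken as a whole. Outside sites the unlabelled library had 0.934 RPM per kb in the window (0.906 to 0.963), 0.599 in the lower flank and 0.692 in the upper flank, and the TGF-β/IL-4 library had 0.878 (0.845 to 0.913), 0.46 and 0.639. Within the upper flank, the stretch from 129350001 to 129400000 had more than the window, 1.34 and 1.64 RPM per kb. With sites called against the genome-wide rate in place of the surroundings, the window held 70 sites, the lower flank 42 and the upper flank 85. At a stricter q of 1e-05 the window held 8 sites, the lower flank 3 and the upper flank 24. All 6 of the strongest sites were found under each of the 9 ways of calling that were tried.

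Over the genome few stretches of this length held as many sites. Of 12531 tiles of 200 kb, 220 (1.76%) had at least 24 sites, the median tile had 5 and the fullest 55. On chromosome 8, 10 of 621 tiles had at least 24. At least 6 sites of 1.99 RPM or more were found in 4.61% of tiles. The total reads of the window, 4944 and 3404, were reached by 1.03% of tiles in the unlabelled library and by 1.31% in the TGF-β/IL-4 library, so a high number of sites and a high number of reads occurred together here.

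**Figure D5:**
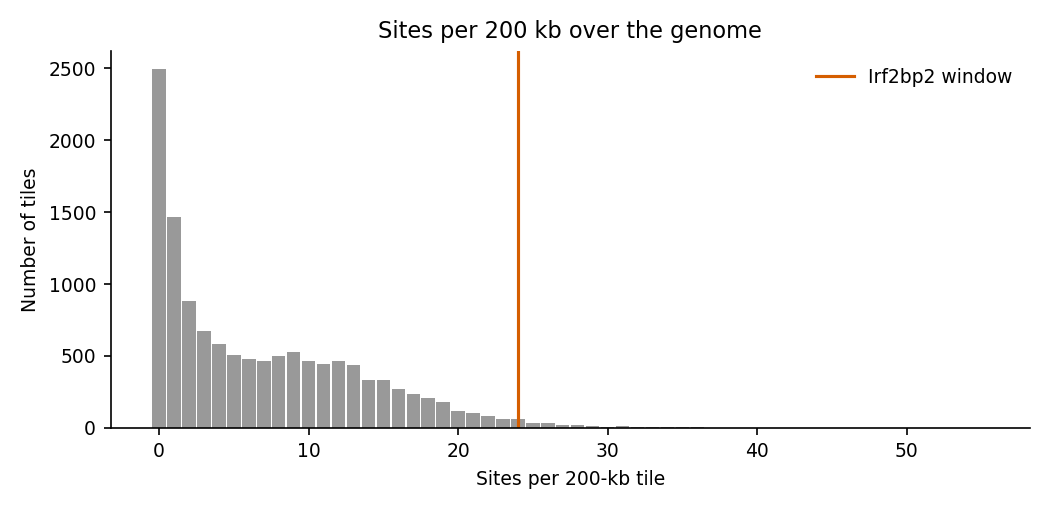
Number of 200-kb tiles of the genome by the number of sites they hold, with the Irf2bp2 window as a line at 24 sites. The median tile has 5 sites, and 220 of 12531 tiles have at least as many as the window.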

How the data were processed

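GATA3 ChIP-seq was analysed from 1 library per condition. The authors deposited 1 line per aligned read of 25 bases, with position, strand and a mapping quality score, which ran from 11 to 42. CASAVA 1.0, Bowtie2 and mm9 are listed, per the submitters' processing notes, with no role or settings; per the labels' protocols, chromatin was sonicated to between 200 and 300 bp and libraries had 17 cycles of amplification. The deposited files held 0 reads sharing position and strand with another, which compresses the strongest sites. Peaks and an input library were not used here.

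Counts cover chromosomes 1 to 19, X and Y: 22963959 in the unlabelled library and 15561681 with TGF-β/IL-4. For calling, the deeper library was thinned to 15561681 reads; all reads were then counted. A bin of 200 bp was enriched at a Benjamini-Hochberg q under 0.01 of a Poisson tail, over bins with a read, against the larger of the rate in the surrounding 10 kb and the genome rate (1.31 reads per bin over stretches of 1 kb with a read). Enriched bins were joined across 1 bin, and at least 20% of reads had to lie on each strand. This compares a library with itself, not the conditions. Ratios carry exact Clopper-Pearson 95% intervals of the split of the reads; reads per kb carry exact Poisson ones. Intervals cover counting error only. They hold no spread between replicates and do not allow for sites having been chosen by the same reads.

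Sites described singly were the 6 with the highest mean RPM, up to 4 with the highest and 4 with the lowest ratio past the rule, and the one nearest to Irf2bp2. The window, these rules and the alternatives were chosen with earlier results of these data known. The code, tested on simulated data, used matplotlib 3.10.9, pandas 2.3.3, scipy 1.17.1 and numpy 2.4.6 under Python 3.11.15.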

Additional observations from a re-analysis of the deposited data

How the results depend on the processing

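The number of sites depended on how they were called. The 24 sites of the window became 8 at a q of 1e-05 (4 per 100 kb) and 70 against the genome rate alone (35 per 100 kb). The lower flank moved from 13 to 3 and 42 sites, and the upper flank from 45 to 24 and 85. With all reads the lower flank held 20 sites, with a second thinning 19, with a 50 kb background 21, with a shifted bin grid 15, with no joining 13, with a shift of 100 bp 9 and with reads of the top mapping quality 16, and over these 7 settings the upper flank held 36 to 53. A second thinning, a 50 kb background, a shifted bin grid, no joining, a shift of 100 bp and reads of the top mapping quality gave 21 to 28 sites in the window. With the window moved by 50 kb either way, a choice made after seeing the data, the count stayed within 1.5 times. Scaled to the sites called in both libraries, 3 sites were higher in place of 7, beside 9.0% of all sites in place of 21%. The ratios of sites 20 and 24 were then 0.784 and 0.621. With a shift of 100 bp 0 sites were lower, since the interval of site 15 then held 1. Among the 7 sites called in both libraries 1 was higher and 0 were lower. No ratio with the surroundings subtracted was made where under 3 reads remained (sites 6, 15 and 22). Without sites 20 and 24, a choice made after seeing the data, the ratio summed over the last 50 kb was 1.67 in place of 1.04. Depth limits the other 18 sites, which held at most 41 reads in a library. No paired analysis was possible because each condition has 1 library.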
